A study of Drosophila melanogaster and Drosophila simulans and Drosophila yakuba with 4 samples.

Results

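The D. simulans library was made from RNA of whole white prepupae, the animals that have just formed the puparium, and is described here through all 14432 genes of its table, of 60411 genes listed over the 4 species of the study. The other libraries came from white prepupae of D. melanogaster, D. yakuba and D. pseudoobscura, with 1 library per species, so there are no replicates, no p-value is given and values of other species stand beside those of D. simulans without a test. No strain, sex, age beyond the stage, treatment or transgene is given for any of the 4 samples in the sources used here, and the tissues of the animals were not separated. For D. simulans the title and the organism field of the sample name the same species, whereas those of D. melanogaster and D. yakuba name each other, and for these the titles were used. The question the study put to these libraries was how changes in H3K27me3 between species, also after gene duplication, relate to expression changes at 1 fixed stage. H3K27me3 is a repressive histone mark and was not analysed here.
Pupariation follows a pulse of the steroid hormone ecdysone. By this stage larval tissues such as the salivary gland and the fat body have made stored or secreted products, and the adult body is still to be built from imaginal cells. In D. melanogaster, genes for glue, storage and cuticle proteins are known to reach high levels in single tissues of larvae or prepupae, not all at the same time. RNA of a whole animal mixes all tissues. Genes with like expression also often lie side by side in fly genomes, as tandem copies of a gene or as neighbors in 1 chromatin domain, and Polycomb chromatin can keep long stretches of genes silent. The D. simulans identifiers are not paired with gene names in the file or in the gene tables used, 0 of 14432 were found in those of D. melanogaster, and no names were carried over from another species. Genes are therefore given by identifier and position, with no role. No sequence of D. simulans was used here, and none is printed.

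FPKM, the unit of the table, divides the sequenced fragments of a gene by a length assigned to its transcript. It also divides by the mapped fragments of the library, so a value is a level per assigned length. In RNA of whole animals, fewer cells that express a gene and less RNA per cell cannot be told apart. Cufflinks, which computed it, also gave a lower and an upper bound for each gene. From these bounds the reads behind each value were solved, and they summed to 9788964 reads over the 14431 genes with status OK, against 5811850 to 13159266 in the other libraries. For the 7963 genes with fewer than 300 such reads, 99.8% came out whole within 0.05 reads. The bounds, and all intervals below, cover counting error in 1 library only, and reads copied in PCR are not independent molecules.

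The FPKM values of D. simulans spread from 0 to 53274.6, with many low and few very high genes. The 10th percentile stood at 0, the 25th at 1.13, the median at 9.40, the 75th at 33.5, the 90th at 110.9 and the 99th at 1719. The mean of 111.4 was 11.9 times the median. Of all genes, 1825 (12.6%) were listed at 0, where 3 reads is the limit that no count leaves, and 1669 lay between 0 and 1. At FPKM 1 or more, the minimum used for a detected gene, were 10938 genes (75.8%), with a median of 16.8. The 3882 genes from FPKM 1 to under 10 held 4.39% of the reads. The 5506 genes from 10 to under 100 held 29.0%, the largest share of any of these classes. The 1321 genes from 100 to under 1000 held 28.0%, the 208 from 1000 to under 10000 held 24.6% and the 21 genes at 10000 or more held 13.9%.
The lower end of the distribution rests on few reads. Of the genes above 0, 1080 had 1 to 3 reads, and 250 of these still stood at FPKM 1 or more. The bounds of 1411 genes lay on both sides of FPKM 1, so whether these genes pass the minimum is within counting error. A detected gene had a median of 225.5 reads, and the median distance of its bounds was 13.3% of the value.
Beside the other 3 libraries the D. simulans median of 9.40 lay between 6.90 in D. melanogaster and 9.64 in D. pseudoobscura, and that of D. yakuba was 5.21. The share of genes at FPKM 1000 or more was 1.59% in D. simulans, 1.56% in D. yakuba, 1.17% in D. pseudoobscura and 1.10% in D. melanogaster. The share of genes at 0 was 12.6%, 14.2%, 9.47% and 10.9% in the same order. The gene sets of the 4 tables differ, and depth differs with them.

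**Figure D1:**
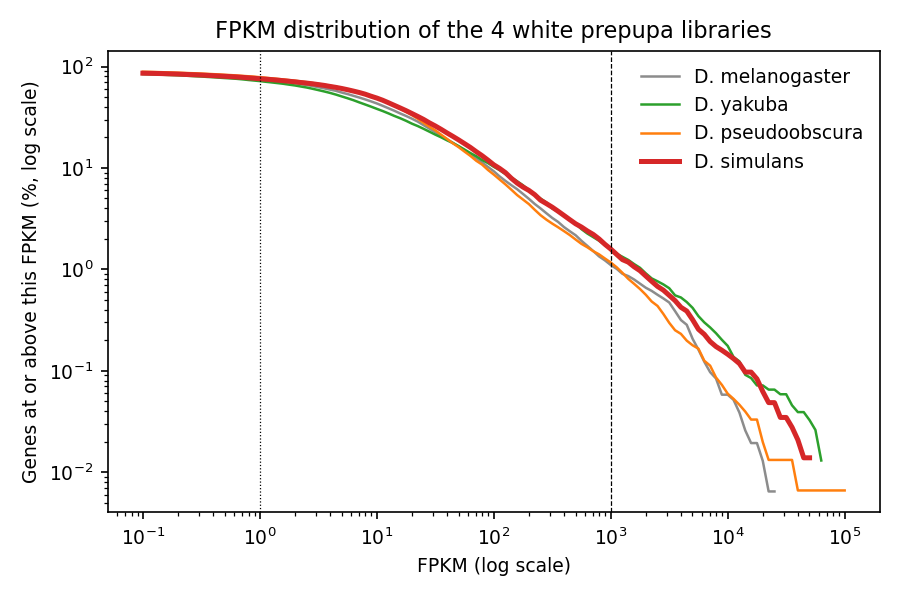
The share of genes at or above each FPKM, in percent, is plotted against FPKM on log scales for the 4 libraries, with dotted and dashed lines at FPKM 1 and 1000. The D. simulans curve (red) passes 75.8% at FPKM 1 and 1.59% at FPKM 1000 and ends at 53274.6.

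At FPKM 1000 or more stood 229 genes, 1.59% of the table, which held 38.5% of the reads and 64.7% of the FPKM sum. Their median was 2165. Most of these genes had short loci: 123 of 229 (53.7%) spanned under 600 bp, against 21.6% of all genes, and the median locus was 528 bp against 1428 bp over all genes. A locus is the span from the first to the last base of the gene model, introns included. The loci ran from 108 to 13895 bp, and 30 of 229 (13.1%) overlapped the locus of another gene, against 9.37% of all genes. Since no source used here states strand, reads of overlapping genes cannot be told apart where their exons overlap. Positions of exons were not used, so how far this applies is not known.
The highest value belonged to FBgn0012845, at 53274.6 with bounds of 51691 and 54858, on 3R from 15723865 to 15724224. It was followed by FBgn0084845 at 51544.7 with bounds of 50900 and 52190, on 3L from 2852143 to 2852352. The third, FBgn0196287, stood at 41116 with bounds of 40180 and 42053, on 2R from 18496124 to 18496563. The bounds of the first and the second overlapped, so their order is within counting error, while those of the third lay below both. The remaining genes of the top 10 were FBgn0184352 (3L) at 36955, FBgn0193548 (2L) at 32806, FBgn0190170 (3R) at 26797, FBgn0182585 (2R) at 25967, FBgn0186169 (3L) at 21806, FBgn0196622 (2R) at 20028 and FBgn0187691 (X) at 18982. The bounds of FBgn0190170 and FBgn0182585 overlapped too, and those of no other neighbors in this order did. Of these 10 loci 9 were under 1000 bp, the exception being FBgn0186169 with 1058 bp.
FPKM and reads ranked these genes differently. FBgn0012845, the first by FPKM, had 4529 reads and was the 299th by reads. FBgn0084845 had 25553 reads and was the 29th, and FBgn0196287 had 7714 reads and was the 164th. Only FBgn0186169 and FBgn0184352 were in the top 10 by both measures, and 131 of the 229 genes at FPKM 1000 or more were also among the 229 genes with the most reads.
By definition the rankings can differ only through the reads that make up 1 unit of FPKM, which are the reads divided by the FPKM. This number rises with the length over which Cufflinks divides. Since FPKM is the divisor, a choice of genes by high FPKM favors a low number. The median was 13.2 reads per unit over all genes above 0 and 2.46 among the 229. By locus length it was 0.0187 for loci under 100 bp, 0.510 from 100 to 299 bp, 2.92 from 300 to 599 bp, 7.28 from 600 to 999 bp and 14.6 from 1000 to 1999 bp. From the class of 100 to 299 bp to that of 1000 to 1999 bp the rise was steeper than that of the length itself. By these medians, within that range of lengths, a shorter locus thus reached a given FPKM with fewer reads per base of locus. Beyond that range the median was 25.9 from 2000 to 4999 bp and 29.2 for 5000 bp or longer, with little rise between these. FBgn0012845 had 0.0850 reads per unit, below each of the 11 other loci of 360 bp with 20 reads or more, which ran from 1.08 to 2.78. FBgn0196287 had 0.188, against 1.41 to 1.72 for 3 others of 440 bp. FBgn0084845 had 0.496, within the range of 0.468 to 0.588 for 6 others of 210 bp. FBgn0190170 had 0.311, against 6.26 for the 1 other of 662 bp. So the first, the third and the sixth gene by FPKM had fewer reads per unit than other loci of their span, and the second did not. Loci of the span of the second all had few reads per unit, against the median of 13.2 over all genes above 0. Among the remaining genes of the top 10, FBgn0184352, FBgn0182585, FBgn0186169 and FBgn0187691 lay within the range of other loci of their span. FBgn0193548, at 0.588 against 0.468 to 0.571, and FBgn0196622, at 0.818 against 0.795 for 1 other, lay above. Few reads per unit for the span were thus not a general trait of the top 10. Exon lengths were not used here, since the table gives only the locus, and their part in this was not tested.
Loci of 100 to 299 bp, 972 genes, held 19.8% of the FPKM sum and 1.74% of the reads, whereas the 3204 loci of 2000 to 4999 bp held 11.1% of the FPKM sum and 33.9% of the reads. Of the 354 loci under 100 bp, 313 (88.4%) were at 0 and none was at FPKM 1000 or more. FBgn0256491, an 84 bp locus on 3R, stood at 443.2 from 10 reads, with bounds of 162.9 and 723.5. In all, 20 genes at FPKM 100 or more had 1 to 10 reads, with loci of 63 to 361 bp.
Among the 229 genes the reads ran from 65 to 720323, with a median of 7712, and 37 genes had fewer than 1000. FBgn0189417, a 108 bp locus on 2R, had the fewest and stood at 1161 with bounds of 872.8 and 1449, the widest of the set at 24.8% of the value. The median gene of the set had bounds 2.28% of its value away. Just inside the threshold lay FBgn0184086 at 1018, FBgn0189915 at 1014 and FBgn0083425 at 1013.7, and just outside it FBgn0012838 at 997.8, FBgn0188512 at 988.3 and FBgn0184658 at 984.7. Of the 229 genes 12 had a lower bound under 1000, and 13 genes below the threshold had an upper bound that reached it.

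**Figure D2:**
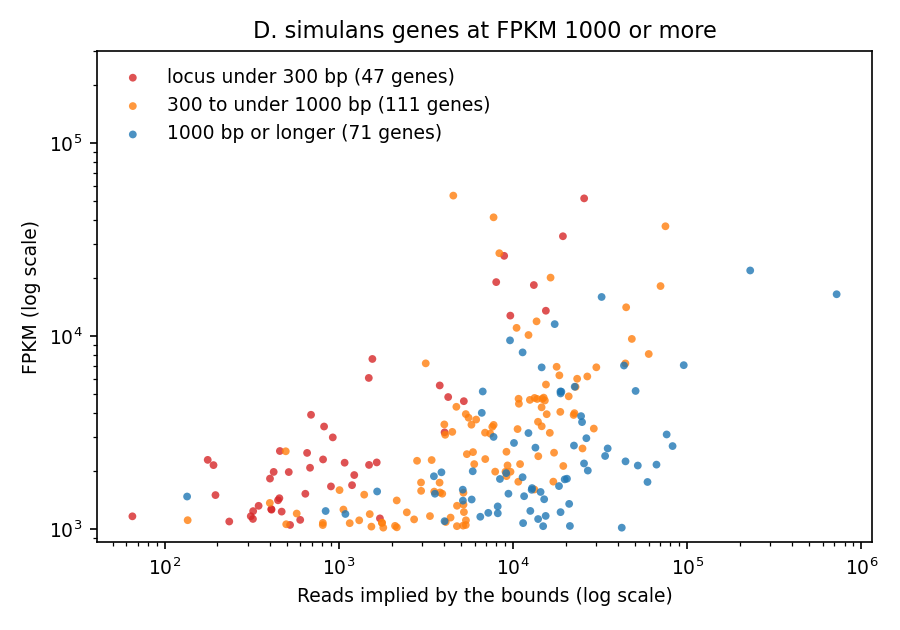
FPKM is plotted against the implied reads, both on log scales, for the 229 D. simulans genes at FPKM 1000 or more, 1 point per gene, colored by the length of the locus. Most loci under 300 bp (red) lie to the left of loci of 1000 bp or longer (blue) at a like FPKM, and the gene with 720323 reads lies alone at the right.

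A single gene, FBgn0184358, held 7.36% of all reads of the library (exact binomial interval 7.34% to 7.37%, and 7.32% to 7.40% from the rounding of the printed bounds). It lies on 3L from 13442399 to 13445545, a locus of 3147 bp, and stood at an FPKM of 16423, the 13th highest. Its 720323 reads were 3.14 times the 229687 of FBgn0186169, the second by reads with 2.35% of the library. The third, FBgn0186170, had 95367 reads (0.974%), so the reads dropped steeply over the first 3 genes, all of them on 3L within 144008 bp.
The next genes lay closer together. FBgn0016340 (3L) had 82289 reads, FBgn0189472 (3L) 76079, FBgn0184352 (3L) 74879, FBgn0189234 (3R) 70166, FBgn0195756 (chromosome 4) 66507, FBgn0024781 (2L) 60032 and FBgn0193055 (2L) 59061. Of the 10 genes with the most reads 6 were thus on 3L, and none was on 2R or X. Their FPKM ran from 1749 for FBgn0193055 to 36955 for FBgn0184352.
The first 10 genes by reads held 15.7% of the library, the first 100 held 35.2% and the first 1000 held 67.5%. Without FBgn0184358 the 10 leading genes held 9.55% of the remaining reads. Ranked by FPKM instead, the first 10 genes held 4.12% of the reads and 20.5% of the FPKM sum. A 50% share of the reads was reached with 313 genes (2.17% of the table), a 90% share with 3831 and a 99% share with 8182. For the FPKM sum 87 genes reached 50%. At the other end, the 7376 genes under FPKM 10 together held 4.51% of the reads, less than FBgn0184358 alone.
The gene with the most reads held 7.36% in D. simulans, 6.77% in D. pseudoobscura, 2.71% in D. yakuba and 1.35% in D. melanogaster. The 10 genes with the most reads held 15.7%, 14.1%, 13.1% and 9.58% in the same order. For the first 1000 genes the shares were 67.5%, 61.5%, 68.1% and 66.1%. In D. melanogaster only 69.3% of the genes with few reads gave whole numbers, so its shares are less certain, and the depth of the libraries differs. Genes were not matched between species, so whether these are the same genes was not tested.

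**Figure D3:**
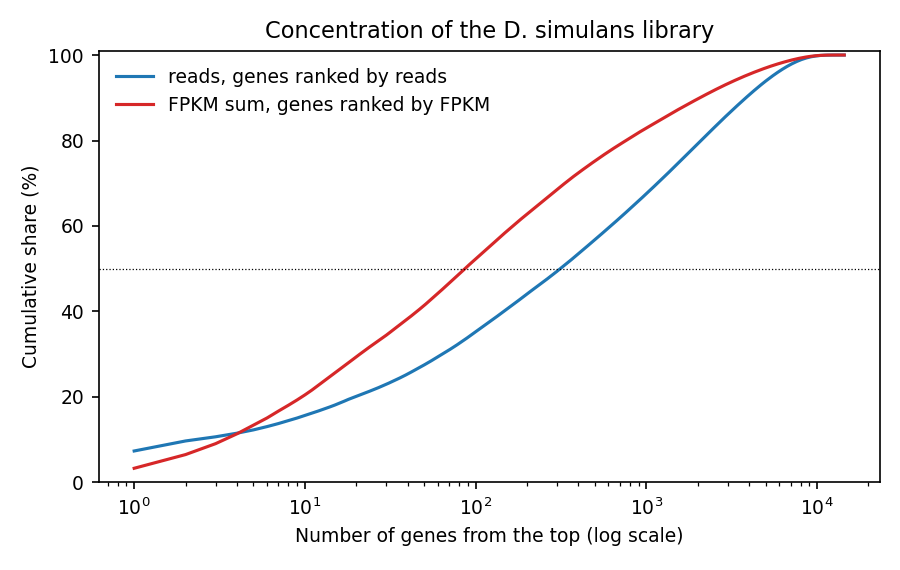
The cumulative share in percent is plotted against the number of genes counted from the top, on a log scale, for reads (blue, genes ranked by reads) and for the FPKM sum (red, genes ranked by FPKM), with a dotted line at 50%. The blue curve starts at 7.36% and crosses the line at 313 genes, and the red curve starts at 3.31% and crosses it at 87.

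The 5 arms 2L, 3L, 3R, X and 4 carried 11399 of the 14432 genes and the other 3033 were on 2R. Positions are those of the file, and no source used here names the build of the D. simulans genome. The labels name dm3, a D. melanogaster build, for all 4 samples, but the last D. simulans locus on X ended at 17028939 and the last D. melanogaster locus there at 22417005, and no coordinates of another species were used.
The arms differed in the level of their genes. The median FPKM was 11.0 on 2L, 10.2 on 2R, 9.58 on 3L, 9.53 on 3R, 6.27 on X and 46.4 on chromosome 4. Chromosome 4, the small dot chromosome whose chromatin is largely heterochromatic in D. melanogaster, had 67 genes, of which 61 (91.0%) were detected and 23 (34.3%) stood at FPKM 100 or more, against 7.89% to 11.8% on the other arms. Its lower quartile was 12.2, above the median of each other arm. Loci there were longer, with a median of 3381 bp against 1401 to 1512 bp elsewhere. Among loci of 1240 to 7660 bp, the middle range of chromosome 4, its 33 genes had a median of 58.2 and 5762 genes of the 4 large autosome arms had a median of 9.92. The median on chromosome 4 was thus also the higher one within this range of lengths. Genes of an arm are not replicates, and no test was made.
On chromosome 4 the highest gene was FBgn0195756 at 2151, the only one there at FPKM 1000 or more, with 36.7% of the reads of the chromosome. It was followed by FBgn0022517 at 941.8 and FBgn0195732 at 711.7. Of its 6 genes under FPKM 1, FBgn0195736, FBgn0195735, FBgn0195737 and FBgn0195713 were at 0.
On X the share of genes at FPKM 1000 or more was 1.22% (23 of 1889), the lowest of the 6, and on 2L it was 1.98% (54 of 2726), the highest. X held 8.40% of the reads with 13.1% of the genes. 3L held 30.4% of the reads with 20.6% of the genes, and 24.2% of the reads on 3L were those of FBgn0184358. Without that gene 3L held 24.9% of the remaining reads.

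Very high genes stood side by side in 14 runs on these 5 arms, where a run is 2 or more genes at FPKM 1000 or more that follow each other in the order of their starts. Of the 11399 genes there 173 (1.52%) were at FPKM 1000 or more, and 32 of the 173 (18.5%) were in runs. There were 6 runs on 2L, 4 on 3L, 2 on 3R, 2 on X and none on chromosome 4. Of the 14 runs 11 had 2 genes, 2 had 3 genes and 1 had 4 genes, and 13 held no overlapping locus. They were compact, spanning 1334 to 12014 bp, and together held 7.34% of the reads of the library.
The genes around very high genes were also higher than the rest, and their median was lower with each step. Of the 346 direct neighbors of the 173 genes 10.4% were at FPKM 1000 or more and 27.7% at 100 or more, against 1.52% and 10.5% of all genes on these arms. The median FPKM was 17.7 for direct neighbors, 13.9 at 2 steps, 13.6 at 3 steps, 11.6 at 5 steps and 9.16 at 10 steps, against 9.21 over all genes of the 5 arms. At 10 steps the median was thus close to that of all genes, while the share at FPKM 1000 or more was 2.35%, as at 5 steps with 2.33%. A pair of very high neighbors counts in both directions, and no chance test was made. Over all consecutive pairs the levels were weakly related, with a Spearman rho of log2(FPKM + 1) of 0.24 on 2L, 0.31 on 3L, 0.29 on 3R, 0.30 on X and 0.37 on chromosome 4, the last from 66 pairs. Genes of 1 library share its depth and are not independent, so no p is given. Among detected genes alone the rho over the 5 arms was 0.13 against 0.29 for all, so the relation was weaker once genes under FPKM 1 were left out. Here pairs were formed after those genes were removed, so some members of a pair had removed genes between them. The parts of the narrower range and of the changed pairs in this were not separated.

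**Figure D4:**
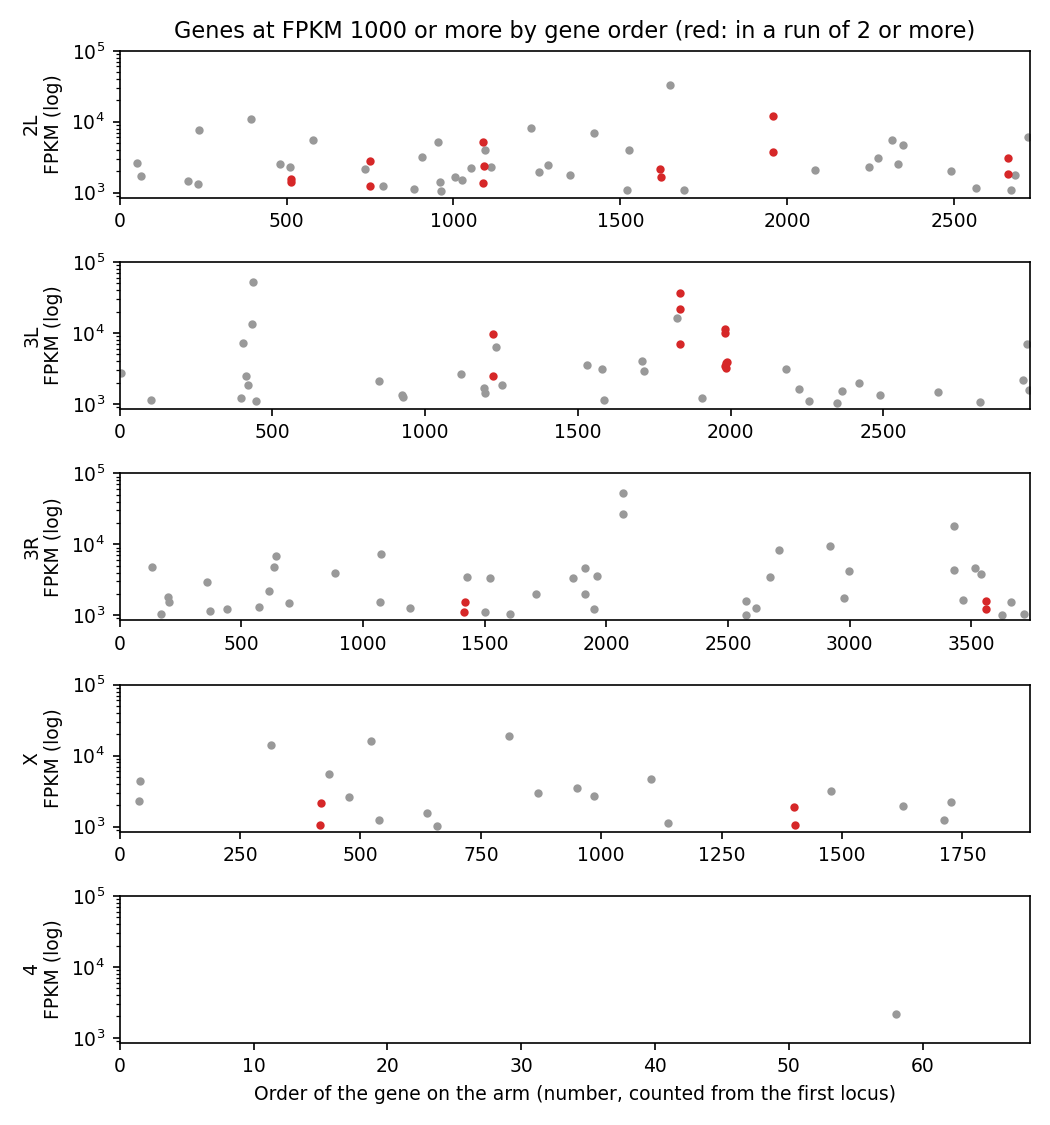
FPKM on a log axis is plotted against the order of the gene along each of the 5 arms for the 173 genes at FPKM 1000 or more, with the 32 genes in runs of 2 or more in red. The runs are spread over 2L, 3L, 3R and X, the highest genes of a run lie on 3L, and chromosome 4 has 1 gene and no run.

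The run with the most reads lies on 3L from 13581833 to 13586406 and has 3 genes in 4574 bp. FBgn0186169 stood at 21806 (bounds 21715 and 21897), FBgn0184352 at 36955 (36685 and 37225) and FBgn0186170 at 7046 (7000 and 7091). No bounds of the 3 overlapped, and together they held 4.09% of the reads of the library. The gene before them, FBgn0186168, stood at 174.6 and the one before that, FBgn0186167, at 204.0, while the gene after them, FBgn0186171, lay 33583 bp away at 13.2. Both ends of the run were thus sharp. With the 2 genes to its left it made a run of 5 genes at FPKM 100 or more, one of 3 runs of that length on 3L and the one with the highest median. Of these 2, FBgn0186168 had 275 reads and FBgn0186167, a locus of 17397 bp, had 92. FBgn0186167 had 0.451 reads per unit of FPKM, against a median of 29.2 for loci of 5000 bp or longer.
FBgn0184358, the gene with the most reads, lies 136287 bp to the left of this run. Between them are 9 genes with a median of 7.21, 2 of them under FPKM 1, so the high level is not continuous. Over the 13 genes from FBgn0184358 to FBgn0186170, a stretch of 144008 bp, lay 11.5% of the reads of the library and 37.6% of those on 3L. FBgn0184358 and the run alone held 11.4% of the reads of the library, and they set the ends of the stretch. The direct neighbors of FBgn0184358 stood at 290.4 and 4.10.
The longest run at FPKM 1000 or more, with 4 genes in 6354 bp, lies further along 3L from 14979283 to 14985636. FBgn0184276 stood at 11499 (bounds 11324 and 11674), FBgn0186242 at 10096 (9913 and 10279), FBgn0184275 at 3399 (3342 and 3455) and FBgn0186243 at 3764 (3663 and 3865). The first 2 were higher than the others beyond their bounds. After 1 gene at 99.7, FBgn0184274, came a further run of FBgn0184273 at 3179 and FBgn0186244 at 3931, and then FBgn0184272 at 665.8 and FBgn0186245 at 493.5. The series ended with FBgn0184271 at 3.44 from 5 reads and FBgn0186246 at 5.04 from 7 reads. So 8 of 9 genes in a row stood at FPKM 493.5 or more, and the 2 that followed stood under FPKM 10. On its left the nearest gene, FBgn0186241, lay 23759 bp away at 8.51.
The third run of more than 2 genes lies on 2L from 8133052 to 8140507. FBgn0194905 stood at 5148 (bounds 5022 and 5274), FBgn0194906 at 1346 (1328 and 1365) and FBgn0193822 at 2384 (2358 and 2410). The loci of the last 2 overlap, with FBgn0193822 inside FBgn0194906, so the reads of these 2 cannot be told apart where exons overlap. With FBgn0194904 at 126.0 it made a run of 4 genes at FPKM 100 or more, one of 2 runs of that length on 2L and the one with the higher median. After 3 genes between 45.6 and 71.5 came FBgn0193818 at 3925, so high genes went on past the end of the run.

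**Figure D5:**
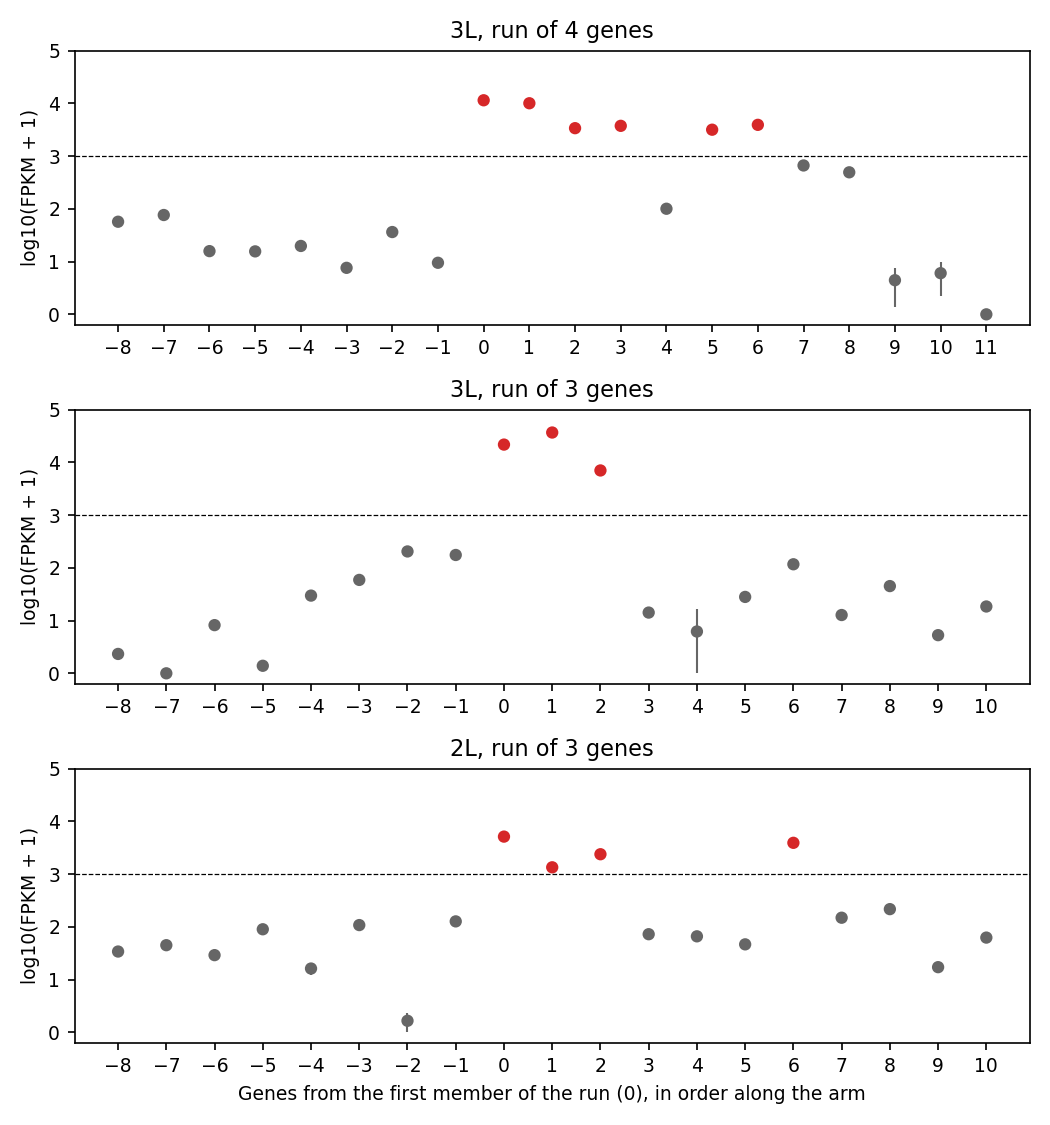
Each panel plots log10(FPKM + 1) with the Cufflinks bounds for the genes in order along the arm, counted from the first member of a run, with 8 genes on each side and a dashed line at FPKM 1000. The genes directly next to the 3 runs are under FPKM 200. In the upper panel the high genes go on after 1 gene at 99.7, and in the lower panel FBgn0193818 stands at 3925 after 3 lower genes.

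The remaining runs were pairs. The highest were FBgn0193408 at 11886 and FBgn0195337 at 3682 on 2L and FBgn0185863 at 9637 and FBgn0185864 at 2480 on 3L. In the former the genes on either side stood at 9.25 and 0, and in the latter at 64.6 and 147.2, so both pairs stood apart from their neighbors. On 2L further pairs were FBgn0195663 at 3070 with FBgn0195664 at 1818, and FBgn0083419 at 2785 with FBgn0194760 at 1220. Also on 2L were FBgn0193561 at 2143 with FBgn0195162 at 1683, and FBgn0194128 at 1403 with FBgn0194127 at 1573. On X they were FBgn0187885 at 1039 with FBgn0188323 at 2131, and FBgn0188851 at 1875 with FBgn0187399 at 1046. On 3R they were FBgn0188726 at 1210 with FBgn0192940 at 1593, and FBgn0191874 at 1095 with FBgn0191875 at 1559. In each of these 10 pairs the bounds of the members did not overlap, and the lower member had 806 to 20358 reads.
Very high genes with a gene under FPKM 1000 between them are not counted as runs. On 3R, FBgn0012845 at 53275 and FBgn0190170 at 26797 flank FBgn0190171, which stood at 1.89 from 7 reads. FBgn0190170 overlaps the 141 bp locus FBgn0256493, at 138.4 from 20 reads. On 3L, FBgn0084845 at 51545 and FBgn0084420 at 13489 lie in a row of 5 short loci of 174 to 270 bp within 3985 bp, where FBgn0085095 stood at 817.4, FBgn0185455 at 357.3 and FBgn0084247 at 186.7. All 5 were at FPKM 100 or more, and the genes on either side stood at 63.3 and 13.4.

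At the lower threshold of FPKM 100, which 10.5% of the genes on the 5 arms passed, there were 45 runs of 3 or more genes with 155 of the 1201 high genes. They were 14 on 3L, 13 on 2L, 10 on 3R, 5 on X and 3 on chromosome 4. On chromosome 4 the 3 runs held 15 of the 23 high genes (65.2%), against 8.13% to 15.1% on the other arms, where high genes are a smaller share. The longest run of all, with 6 genes from 152660 to 218918 on chromosome 4, had FBgn0195738 at 122.2, FBgn0195732 at 711.7, FBgn0195731 at 249.8, FBgn0195730 at 159.1, FBgn0189396 at 121.3 and FBgn0195739 at 106.0. It spans 66259 bp and none of its members reached FPKM 1000, so it is longer and lower than the very high runs. Near the right end of the chromosome a run of 5 genes held FBgn0022517 and FBgn0195756, and its 33881 bp carried 0.954% of the reads of the library.
On X the longest such run had 5 genes in 25645 bp, FBgn0187436 at 333.9, FBgn0187435 at 272.8, FBgn0187434 at 185.9, FBgn0188810 at 104.3 and FBgn0188811 at 577.4. On 3R no run was longer than 3 genes, and the one with the highest median was FBgn0192143 at 4656, FBgn0192144 at 106.1 and FBgn0190257 at 1975. In tables of the same 5 arm names, D. yakuba had 10 runs at FPKM 1000 or more and 32 at 100 or more, and D. melanogaster had 7 and 24, against 14 and 45 in D. simulans. The number of genes past the threshold differs between the tables, and the difference was not tested.

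Genes under FPKM 1 also stood in rows. On the 5 arms 24.3% of the genes were under 1, and 510 of these 2775 genes lay in 80 runs of 5 or more. There were 27 such runs on 3L, 25 on 3R, 15 on X, 13 on 2L and none on chromosome 4, and together they held 0.00886% of the reads. The longest, with 15 genes over 75949 bp on 3R from 22272741 to 22348689, had 34 reads in all, and 8 of its genes were at 0. Its highest was FBgn0189667 at 0.965, and 0 of its loci were under 600 bp. The genes next to it stood at 10.3 on the left and 2.12 on the right, so neither reached FPKM 100.
A run of 12 genes on 3R, from 8027543 to 8042652, had 2 reads in all. It follows a run of 11 genes, from 7985429 to 8025281, with 1 read, and a single gene, FBgn0190681 at 2.70, lies between them. The stretch therefore held 3 reads beside those of that gene, but 10 of 12 and 10 of 11 of the loci were under 600 bp, and 6 of the 12 were of 72 to 74 bp, a length at which most loci of this table were at 0. At such lengths a count of 0 does not show that a gene is silent. A run of 11 genes on 3L from 10289694 to 10366417 had 1 read, with 9 loci under 600 bp.
The longest run on X had 10 genes over 42091 bp with 8 reads, and 8 of its genes were at 0. Low runs were longer on the genome than very high ones, with a median span of 33175 bp against 3543 bp, and their limit of 5 genes against 2 is part of that difference.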

How the data were processed

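RNA of whole D. simulans white prepupae was isolated with Trizol and made into 1 library by Illumina protocols. The deposited table is the gene-level output of Cufflinks: an FPKM with a lower and an upper bound for each gene. The authors ran it on TopHat alignments of trimmed reads from 1 end of each fragment. The processing notes of the submitters also name Bowtie, SAMtools and dm3. Versions, strand and D. simulans build: not given in the sources used here. Starts were read as counted from 0 and moved by 1, since 67.4% of the loci under 600 bp then have a length that is a multiple of 3.
Reads were solved from the upper bound, taken as FPKM plus 2 times FPKM over the square root of the reads. The mean and median D. simulans values use all 14432 rows, and reads use the 14431 with status OK. Lengths in bases were not derived from reads, FPKM and the implied total, since 42.3% of 10044 genes with 20 reads or more would then exceed their locus. The other tables served for values side by side, with rows of a gene summed. No test between samples was possible with 1 library per species. The arithmetic, the search for runs and the correlation were tested on simulated data. The simulated bounds were built with the formula above, so this cannot check whether the Cufflinks bounds follow it. Members, thresholds and rules were chosen with earlier results of these data known.
Genes named are the 10 highest by FPKM and by reads, all members of runs at FPKM 1000 or more, the longest run at FPKM 100 or more per arm (of runs with equally many genes, the one with the highest median FPKM), and the 3 genes on each side of 1000. Other genes named, such as run neighbors, low-run genes and those of few reads, were chosen after their values were seen. Alternatives were other thresholds, no overlapping loci, loci of 300 bp or longer, order by midpoint, a distance limit of 20000 bp, 1 interruption and a pseudocount of 0.1. Calculations used numpy 2.4.6, pandas 2.3.3 and, for exact intervals, scipy 1.17.1 in Python 3.11.15, with plots by matplotlib 3.10.9.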

Additional observations from a re-analysis of the deposited data

How the results depend on the processing

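Of 52 comparisons of a value with an alternative, 26 were labeled as the same. For counts this meant within 1.5 times the count, and for the share of reads within counting error. For arm medians and the neighbor rho it meant no change at all. A rho of 0.2890 that became 0.2878 without overlapping pairs thus counted as moved. An arm median cannot fall when only detected genes are kept, so those comparisons are no tests. Status OK removed no detected gene and a pseudocount of 0.1 cannot change a rank correlation, so these 2 are no tests. At FPKM 500 or 2000 there were 408 and 124 genes in place of 229, and 5 runs of very high genes at 2000. Runs of 3 or more high genes numbered 126 at FPKM 50, 9 at 200 and 72 with 1 interruption. Low runs numbered 24 under FPKM 0.1 and 223 under 5. The 10 leading genes held 20.5% of the FPKM sum, 4.12% of the reads when ranked by FPKM, 16.0% with loci of 300 bp or longer and 17.1% without overlapping loci. Without FBgn0184358, an alternative chosen after seeing the data, they held 9.55%. The neighbor rho of 0.29 was 0.29 without overlapping pairs and 0.13 among detected genes, paired anew after the others were removed. The medians of 2L, 2R, 3L, 3R, X and 4 among detected genes were 18.5, 17.5, 17.9, 17.0, 11.6 and 52.9. With loci of 300 bp or longer, chosen after seeing the data, those of 2L, 2R, 3L, 3R and X were 11.6, 11.0, 10.5, 10.1 and 6.81. Chromosome 4 stood highest and X lowest under both. No paired analysis was possible because each species has a single library. A library of 9788964 implied reads leaves 1825 genes at a count of 0, each of which allows up to 3 reads.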
